A study of Mus musculus with 52 samples.

Results

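The type I interferon-stimulated genes described here are 39 genes chosen by name, with earlier results of these data known. They run from the signalling factors Irf7, Irf9 and Stat2 to sensors and antiviral effectors, out of 47729 identifiers in the deposited tables. Each symbol matched 1 identifier, and all 39 were among the 17899 genes that passed the filter on low counts and were tested. RNA was sequenced from 52 mammary tumours of 4T1, a mouse triple-negative breast carcinoma line, grown orthotopically in Balb/C mice, the strain it comes from. The mice were young (8 to 10 weeks in the sample labels, up to 12 in the growth protocol) or aged (above 12 months), and were injected with 100000 tumour cells and then, on days 7, 10 and 13, with 200 µg of an antibody (3 doses). The groups were young isotype (clone LTF-2, n = 7), young anti-PD-L1 (clone 10F.9G2, n = 10), young anti-CTLA4 (clone 9D9, n = 12), aged isotype (n = 7), aged anti-PD-L1 (n = 8) and aged anti-CTLA4 (n = 8). All groups share the strain and the tumour line, the labels name no altered allele, and the isotype groups were injected too. The labels number biological replicates without naming animals, so the p-values below measure the spread between these libraries.

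Type I interferons are secreted proteins that bind the receptor pair Ifnar1 and Ifnar2 and activate the kinases Jak1 and Tyk2, which phosphorylate STAT proteins. Stat2 joins Irf9 in the complex ISGF3, which binds the interferon-stimulated response element in the promoters of its target genes. The targets include sensors of viral nucleic acid, enzymes that act on RNA, the ubiquitin-like modifier Isg15 and Irf7, a transcription factor that raises interferon production further. In tumours both carcinoma cells and infiltrating leukocytes can carry this programme, and interferon gamma, which acts through a receptor of its own, induces part of the same genes.

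Promoter sequences, defined as 250 bases before the start and 50 after it, were taken from RefSeq (GRCm38.p6) and held 29 of the 39 members. The core of the response element was searched as GAAANNGAAA on both strands, so that TTTCNNTTTC counts as well and overlapping matches count separately. It occurred in 14 of the 29 members (48.28%) and in 1079 of 27025 genes with a promoter in the table (3.99%). A match is a run of letters, not a measured binding site. The 250 bases before the start are shown for members that the results below turn on or that differ as paralogs, 5′ to 3′ along the gene, with each match in capitals.
Stat2, chr10:128270248-128270497, plus strand: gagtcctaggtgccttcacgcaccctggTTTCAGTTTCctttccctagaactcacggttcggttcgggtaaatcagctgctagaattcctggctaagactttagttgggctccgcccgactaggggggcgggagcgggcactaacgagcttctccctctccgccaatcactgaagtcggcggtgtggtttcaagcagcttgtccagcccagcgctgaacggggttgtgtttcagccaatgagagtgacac
Isg15, chr4:156200819-156201068, minus strand: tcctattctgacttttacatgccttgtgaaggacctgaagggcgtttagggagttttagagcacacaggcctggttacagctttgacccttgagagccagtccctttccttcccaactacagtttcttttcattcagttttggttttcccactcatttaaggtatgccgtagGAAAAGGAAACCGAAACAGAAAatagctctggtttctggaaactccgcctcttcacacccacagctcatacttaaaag
Rsad2, chr12:26456453-26456702, minus strand: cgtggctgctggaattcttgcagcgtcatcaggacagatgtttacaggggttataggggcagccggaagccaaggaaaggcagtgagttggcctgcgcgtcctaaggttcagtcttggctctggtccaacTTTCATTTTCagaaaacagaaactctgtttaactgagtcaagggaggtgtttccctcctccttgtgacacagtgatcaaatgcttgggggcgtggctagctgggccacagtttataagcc
Bst2, chr8:71537473-71537722, minus strand: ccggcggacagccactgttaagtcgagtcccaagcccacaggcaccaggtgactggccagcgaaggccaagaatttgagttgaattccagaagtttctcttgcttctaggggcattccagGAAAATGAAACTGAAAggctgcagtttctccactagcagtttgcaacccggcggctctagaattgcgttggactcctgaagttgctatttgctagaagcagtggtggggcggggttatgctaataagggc
Ifit3, chr19:34583279-34583528, plus strand: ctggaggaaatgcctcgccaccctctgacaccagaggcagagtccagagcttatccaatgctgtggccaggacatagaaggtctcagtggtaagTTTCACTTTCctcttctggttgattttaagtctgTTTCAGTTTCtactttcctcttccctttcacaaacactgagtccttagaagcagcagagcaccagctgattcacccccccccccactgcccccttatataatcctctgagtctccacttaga
Ifit3b, chr19:34607707-34607956, plus strand: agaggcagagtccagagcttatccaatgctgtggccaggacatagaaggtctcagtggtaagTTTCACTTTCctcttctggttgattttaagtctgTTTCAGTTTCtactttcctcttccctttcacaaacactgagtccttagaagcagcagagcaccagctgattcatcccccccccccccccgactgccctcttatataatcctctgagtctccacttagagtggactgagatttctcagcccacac
Positions of matches are those of their first base, counted back from the start of the gene. The match in Stat2, a subunit of ISGF3, began at -222 and that in Rsad2 at -120. Bst2 had 2 overlapping matches, at -130 and -124, and Isg15 had 3, at -78, -72 and -66. The neighbouring genes Ifit3 and Ifit3b each carried a pair of matches, all in the form TTTCNNTTTC. In transcripts of GENCODE vM21, 41.1% of the 75-base stretches of Ifit3 also occurred in Ifit3b, and 47.6% of those of Oas1a in Oas1g, so counts of these paralogs can be shared between them.

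Library totals lay between 9549847 and 53778370 counts (median 20665734). Values below are in CPM, counts scaled to a common library total, after TMM normalization with factors of 0.618 to 1.21. Libraries came from 3 numbered sequencing batches that were not balanced. All 7 young isotype libraries were from batch 2, all 8 aged anti-PD-L1 libraries from batch 1, and aged anti-CTLA4 had 7 libraries in batch 1 and 1 in batch 3. Young anti-CTLA4 held 4, 3 and 5 libraries of batches 1, 2 and 3. The young and aged isotype groups shared no batch, nor did the young and aged anti-PD-L1 groups, so for those pairs age and batch were separated through the other groups alone. A gene is said to have risen, fallen or passed where edgeR's quasi-likelihood test, with terms for group and batch, gave a Benjamini-Hochberg adjusted p under 0.05 over all genes tested.

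On the TPM scale, which allows for transcript length, the members spanned a wide range of levels. Ifi27l2a, a small interferon-induced membrane protein, had the highest median over the 52 libraries at 541 TPM. Bst2 (tetherin, which holds budding virions at the membrane) followed at 382 TPM and Isg15 at 143 TPM. Lgals3bp, a secreted glycoprotein, had a median of 124 TPM and Zbp1, a sensor of Z-form nucleic acid, 99.7 TPM. Irf7 had a median of 50.5 TPM, and Oas2, Oas3 and Mx1 were lowest at 2.56, 2.51 and 2.08 TPM. The ratio of the highest to the lowest library was greatest for Oas3 (34.4) and smallest for Ifi35 (2.73). Within groups and batches the members had a median residual SD of 0.48 in log2 CPM, against 0.45 over all genes tested. Set beside the 500 genes nearest to it in mean level, 36 of 39 members had a larger residual SD than most of them, and the median member exceeded 81.8%. Isg15 exceeded 98.6% and Irf9 33.7%. Ifi27l2a and Oas2 varied most, both at 0.81, and Irf9 least, at 0.25.

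The members were lower in aged than in young tumours under anti-CTLA4. Of the 39, 16 fell and 1 rose, against a background of 30.6% of all genes passing in either direction (15.9% lower and 14.8% higher). The members' share was 43.6% in either direction and 41.0% lower. The median log2 fold change was -0.60 over the members and -0.06 over all genes tested, and 35 of 39 members had a negative value (54.2% of all genes did). The genes with the smallest p were Zbp1 at -1.33 ± 0.28 (SE, adjusted p = 0.000449), Oasl1 at -1.06 ± 0.23 (SE, adjusted p = 0.000596) and Rsad2 at -1.8 ± 0.40 (SE, adjusted p = 0.000638). For every member the ranges of the 2 groups overlapped. DESeq2 called the same 17 members. Of members with a promoter in the table, the response element core occurred in 4 of 11 that fell (36.36%) and in 9 of 17 that did not pass (52.94%).

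**Figure D1:**
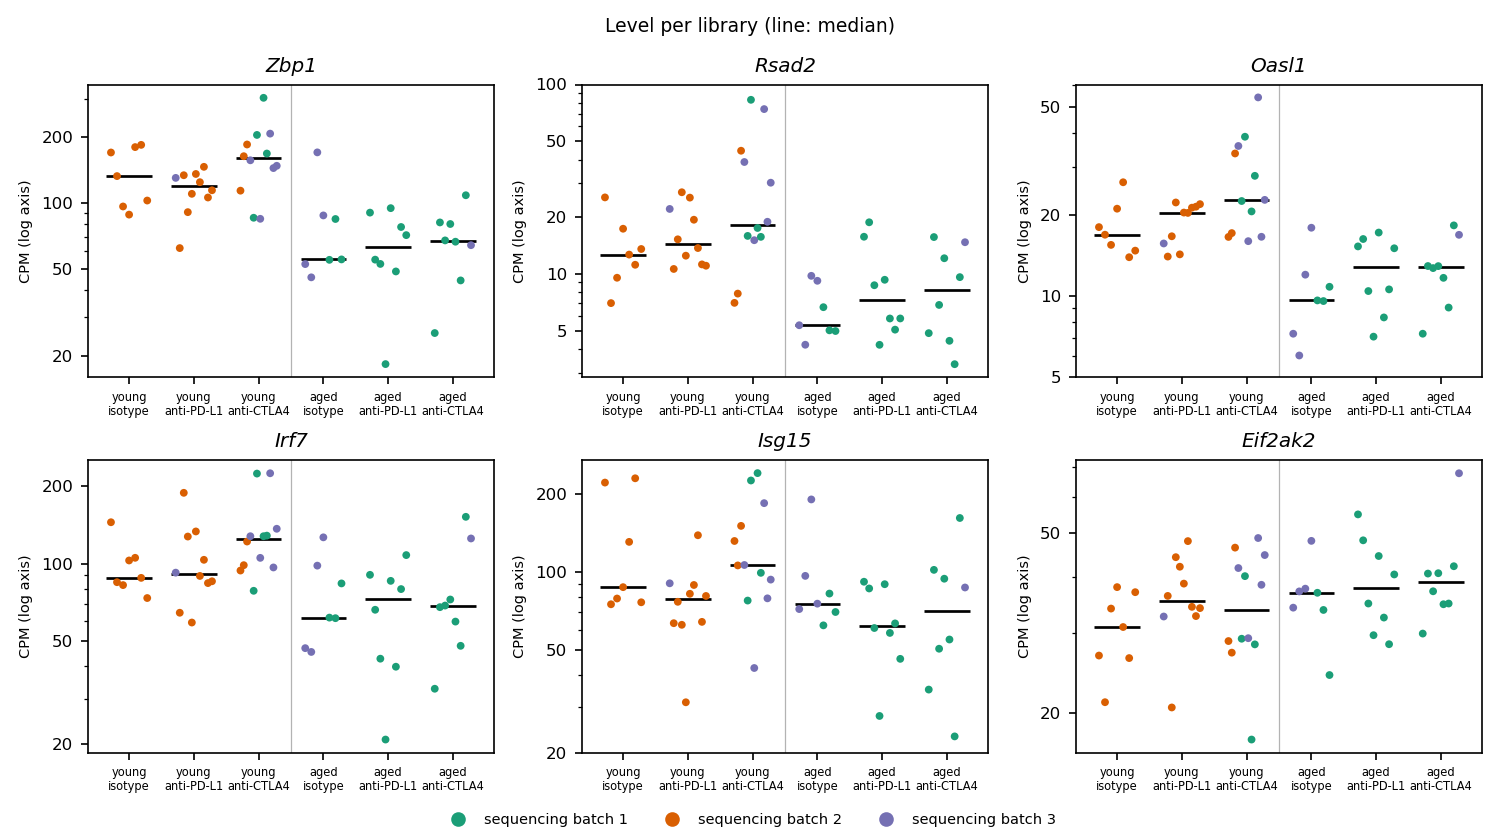
TMM-normalized CPM (log axis) of 6 members in each of the 52 libraries, by group, with the sequencing batch in colour and the group median as a line. In Zbp1, Rsad2 and Oasl1 all 8 aged anti-CTLA4 libraries lie below the young anti-CTLA4 median, while Isg15 (adjusted p = 0.0715) overlaps widely and Eif2ak2 has its highest value, 67.9 CPM, in 1 aged anti-CTLA4 library.

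**Figure D2:**
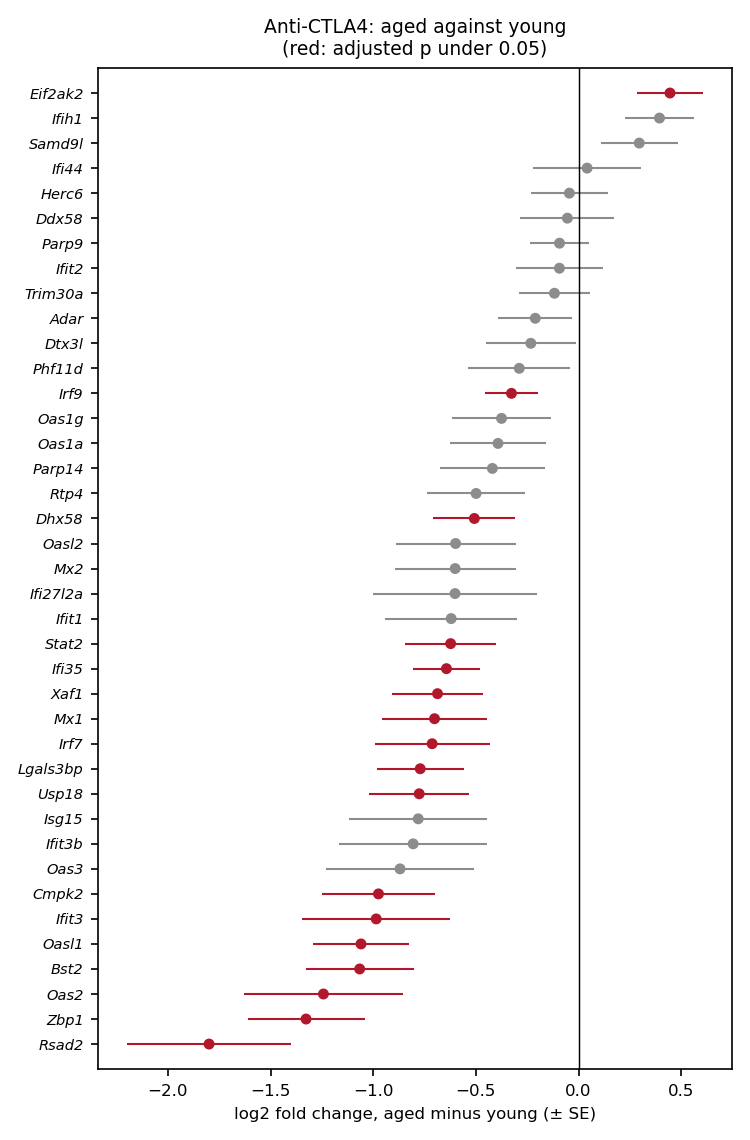
Log2 fold change of aged against young tumours under anti-CTLA4 for each of the 39 members, with bars for the SE and red for an adjusted p under 0.05. The 16 red points left of 0 lie between -1.8 (Rsad2) and -0.33 (Irf9), and the red point right of 0 is Eif2ak2 at 0.44.

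All 3 signalling factors fell. Each triple below gives the lowest, the median and the highest library of a group. Irf7 lay at 73.5, 88 and 144 CPM in young isotype tumours, at 59.1, 90.9 and 188 under anti-PD-L1 and at 78.4, 125 and 223 under anti-CTLA4. In aged tumours it lay at 45.5, 61.8 and 126 CPM under isotype, 20.9, 72.9 and 108 under anti-PD-L1 and 32.8, 68.3 and 152 under anti-CTLA4. 6 of 8 aged anti-CTLA4 libraries lay below the young anti-CTLA4 median and 2 lay above it, and the log2 fold change was -0.71 ± 0.28 (SE, adjusted p = 0.0471). Irf9 lay at 62.1, 71.1 and 82.9 CPM in young isotype tumours, at 52.7, 73.2 and 92.2 under anti-PD-L1 and at 63.7, 75.8 and 86.7 under anti-CTLA4. Aged tumours showed levels of 43.6, 56.9 and 73.6 CPM under isotype, 36.1, 61.8 and 74.6 under anti-PD-L1 and 37.9, 59.4 and 80.8 under anti-CTLA4. Irf9, the DNA-binding subunit of ISGF3, had the smallest passing change, -0.33 ± 0.13 (SE, adjusted p = 0.0468), although all 12 young anti-CTLA4 libraries lay above the aged median. Stat2 lay at 39.5, 66.5 and 83.2 CPM in young isotype tumours, at 47.3, 81.5 and 122 under anti-PD-L1 and at 38.8, 89 and 133 under anti-CTLA4. The aged groups lay at 20.8, 43.3 and 56.1 CPM under isotype, 26.9, 53.1 and 70.4 under anti-PD-L1 and 35, 48.8 and 86 under anti-CTLA4. Stat2 changed by -0.62 ± 0.22 (SE, adjusted p = 0.0268), with 8 of 8 aged libraries below the young median. These calls lay near the threshold. Without aged anti-CTLA4 replicate 1, which had the lowest Irf7 of its group, the values were -0.61 (adjusted p = 0.0973) for Irf7, -0.26 (adjusted p = 0.11) for Irf9 and -0.57 (adjusted p = 0.0532) for Stat2. Over 14 alternatives, listed with the processing, Irf7 passed in 5 (adjusted p 0.0273 to 0.285), Irf9 in 4 (0.0212 to 0.176) and Stat2 in 10 (0.000293 to 0.162).

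Among the 4 sensors of foreign or misplaced nucleic acid, Zbp1 and Dhx58 fell and the RNA helicases Ddx58 (RIG-I) and Ifih1 (MDA5) did not pass. Zbp1 lay at 88.4, 133 and 184 CPM in young isotype tumours, at 62.1, 119 and 146 under anti-PD-L1 and at 84.6, 160.2 and 303 under anti-CTLA4. Levels in aged tumours were 45.6, 55.1 and 170.5 CPM under isotype, 18.3, 63.1 and 94.7 under anti-PD-L1 and 25.4, 66.9 and 108 under anti-CTLA4. 10 of 12 young anti-CTLA4 libraries lay above every aged anti-CTLA4 library. Dhx58 lay at 16.6, 28.1 and 33 CPM in young isotype tumours, at 16, 27.7 and 32.7 under anti-PD-L1 and at 19.1, 31.4 and 51.3 under anti-CTLA4. With age the levels were 13, 17.1 and 25.5 CPM under isotype, 10.7, 20.2 and 28.8 under anti-PD-L1 and 13, 18.3 and 31.1 under anti-CTLA4. Dhx58 (LGP2, a regulator of the other RNA helicases) changed by -0.51 ± 0.20 (SE, adjusted p = 0.0479) with overlapping ranges, and by -0.44 (adjusted p = 0.0963) without aged anti-CTLA4 replicate 1. It passed in 6 of the 14 alternatives (adjusted p 0.0104 to 0.174). Ddx58 lay at 14.1, 33 and 49.9 CPM in young isotype tumours, at 29.3, 41.7 and 55.7 under anti-PD-L1 and at 14.1, 42.8 and 72.1 under anti-CTLA4. Tumours of aged mice had 17, 25 and 37.8 CPM under isotype, 23.2, 35.5 and 56.6 under anti-PD-L1 and 22.5, 33.5 and 63.4 under anti-CTLA4. Ddx58 gave -0.05 ± 0.23 (SE, adjusted p = 0.877) and Ifih1 gave 0.39 ± 0.17 (SE, adjusted p = 0.0664), the sign of Ifih1 being opposite to that of most members.

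Of the Isg15 conjugation genes, Usp18, the protease that removes Isg15 and restrains the receptor, fell by 0.78 ± 0.24 (SE, adjusted p = 0.0126) on the log2 scale. Usp18 lay at 15, 21.9 and 32.8 CPM in young isotype tumours, at 17.6, 24.6 and 32.7 under anti-PD-L1 and at 20.5, 28 and 59.3 under anti-CTLA4. In aged tumours it lay at 13.5, 16.6 and 29.8 CPM under isotype, 6.71, 20.6 and 27 under anti-PD-L1 and 10.6, 18.3 and 30.2 under anti-CTLA4. 7 of 8 aged anti-CTLA4 libraries lay below the young median. Isg15 lay at 75.2, 87.5 and 231 CPM in young isotype tumours, at 31.4, 78.9 and 139 under anti-PD-L1 and at 42.6, 106 and 242 under anti-CTLA4. Aged tumours showed levels of 62.3, 75.6 and 191 CPM under isotype, 27.8, 62.1 and 91.9 under anti-PD-L1 and 23.2, 71.1 and 162 under anti-CTLA4. The Isg15 groups overlapped over most of their range and its change was -0.78 ± 0.34 (SE, adjusted p = 0.0715). Herc6, a ligase for Isg15 in the mouse, gave -0.04 ± 0.19 (SE, adjusted p = 0.877).

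The IFIT proteins bind viral RNA, and of 4 members Ifit3 alone fell, at -0.99 ± 0.36 (SE, adjusted p = 0.0323). Ifit3 lay at 13.4, 25.6 and 36.5 CPM in young isotype tumours, at 13, 21.6 and 41.4 under anti-PD-L1 and at 16.8, 30.9 and 119 under anti-CTLA4. The aged groups lay at 10.3, 14.9 and 38.3 CPM under isotype, 4.61, 17.6 and 33.6 under anti-PD-L1 and 8.58, 17.8 and 32.1 under anti-CTLA4. The highest young anti-CTLA4 library stood far above all other groups, and 6 of 12 young anti-CTLA4 libraries exceeded every aged one. Ifit1 lay at 10.3, 22.1 and 30.1 CPM in young isotype tumours, at 13.2, 24.8 and 41.8 under anti-PD-L1 and at 15.8, 24.5 and 103 under anti-CTLA4. Levels in aged tumours were 13.1, 13.7 and 27.9 CPM under isotype, 7.73, 14.7 and 36 under anti-PD-L1 and 10.5, 19.5 and 31 under anti-CTLA4. Ifit1 gave -0.62 ± 0.32 (SE, adjusted p = 0.138), Ifit2 -0.09 ± 0.21 (SE, adjusted p = 0.767) and Ifit3b -0.81 ± 0.36 (SE, adjusted p = 0.0815). Ifit3 passed in 7 of the 14 alternatives (adjusted p 0.00648 to 0.0866), with -0.89 (adjusted p = 0.0632) without aged anti-CTLA4 replicate 1 and -1.03 (adjusted p = 0.0529) without replicate 8.

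The OAS enzymes make oligoadenylates that activate RNase L, an activity that Oasl1 lacks. Oas2 and Oasl1 fell among 6 members. Oasl1 lay at 13.9, 16.8 and 26.3 CPM in young isotype tumours, at 14, 20.3 and 22.2 under anti-PD-L1 and at 15.9, 22.5 and 54.2 under anti-CTLA4. With age the levels were 6.03, 9.63 and 17.9 CPM under isotype, 7.07, 12.8 and 17.2 under anti-PD-L1 and 7.25, 12.8 and 18.2 under anti-CTLA4. Every aged anti-CTLA4 library of Oasl1, which in the mouse restrains translation of Irf7, lay below the young median. Oas2 lay at 3.23, 7.58 and 16.7 CPM in young isotype tumours, at 6.56, 13.1 and 26.8 under anti-PD-L1 and at 4.36, 18.1 and 38.9 under anti-CTLA4. Tumours of aged mice had 2.23, 4.37 and 9.51 CPM under isotype, 2.76, 7.26 and 15.8 under anti-PD-L1 and 3.86, 6.23 and 18.5 under anti-CTLA4. Oas2 changed by -1.24 ± 0.39 (SE, adjusted p = 0.0125), with 7 of 8 aged libraries under the young median. Oas3 gave -0.87 ± 0.36 (SE, adjusted p = 0.0597) and Oasl2 -0.60 ± 0.29 (SE, adjusted p = 0.113).

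Oas1a lay at 54.3, 74.3 and 128 CPM in young isotype tumours, at 49.5, 71.7 and 106 under anti-PD-L1 and at 41.4, 100.1 and 149 under anti-CTLA4. In aged tumours it lay at 59.7, 66.4 and 111 CPM under isotype, 30.4, 68.9 and 90.9 under anti-PD-L1 and 37.2, 72.7 and 138 under anti-CTLA4. Oasl2 lay at 27, 59.6 and 104 CPM in young isotype tumours, at 43.9, 90.3 and 115 under anti-PD-L1 and at 37.9, 87.3 and 193 under anti-CTLA4. Aged tumours showed levels of 19.8, 36.9 and 52.8 CPM under isotype, 21.1, 50.9 and 88.8 under anti-PD-L1 and 31.2, 47.4 and 103 under anti-CTLA4. Oas1a gave -0.39 ± 0.23 (SE, adjusted p = 0.2) and Oas1g -0.38 ± 0.24 (SE, adjusted p = 0.235), so the pair that can share counts had like values and neither passed.

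Both genes of the viperin locus fell, and Rsad2 (viperin, which makes a chain-terminating nucleotide) had the greatest change of all members, -1.8 ± 0.40 (SE, adjusted p = 0.000638). Rsad2 lay at 6.99, 12.6 and 25.3 CPM in young isotype tumours, at 10.6, 14.4 and 26.9 under anti-PD-L1 and at 7.01, 18.1 and 83 under anti-CTLA4. The aged groups lay at 4.21, 5.34 and 9.74 CPM under isotype, 4.21, 7.24 and 18.7 under anti-PD-L1 and 3.32, 8.21 and 15.6 under anti-CTLA4. 9 of 12 young anti-CTLA4 libraries lay above every aged one, while 3 young libraries, 2 of them from batch 2, lay within the aged range. Cmpk2 lay at 6.69, 14 and 15.8 CPM in young isotype tumours, at 8.63, 13.2 and 21 under anti-PD-L1 and at 9.61, 17.5 and 34.5 under anti-CTLA4. Levels in aged tumours were 5.2, 7.16 and 16.7 CPM under isotype, 3.45, 9.62 and 13.8 under anti-PD-L1 and 4.38, 8.82 and 13.5 under anti-CTLA4. Cmpk2, the nucleotide kinase beside it, changed by -0.97 ± 0.28 (SE, adjusted p = 0.00624), and 8 of 8 aged libraries were under the young median. The GTPase Mx1 fell by 0.70 ± 0.25 (SE, adjusted p = 0.0306) on the log2 scale, and Mx2 gave -0.60 ± 0.29 (SE, adjusted p = 0.114). Mx1 lay at 3.5, 5.35 and 10.1 CPM in young isotype tumours, at 3.39, 5.01 and 7.19 under anti-PD-L1 and at 4.94, 8.97 and 15.3 under anti-CTLA4. With age the levels were 3.86, 4.93 and 9.28 CPM under isotype, 2.1, 5.33 and 10.1 under anti-PD-L1 and 3.53, 5.18 and 9.87 under anti-CTLA4. In Balb/C and most other inbred mice Mx1 carries a deletion that leaves no functional protein, so its RNA does not stand for functional Mx1 protein.

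The 2 enzymes that act on double-stranded RNA gave values of opposite sign. Eif2ak2 (PKR, which halts translation) was the member that rose, by 0.44 ± 0.16 (SE, adjusted p = 0.0315). Eif2ak2 lay at 21.1, 31 and 38 CPM in young isotype tumours, at 20.5, 35.3 and 48 under anti-PD-L1 and at 17.4, 33.8 and 48.8 under anti-CTLA4. Tumours of aged mice had 24.2, 36.9 and 48.1 CPM under isotype, 28.4, 37.7 and 55 under anti-PD-L1 and 29.95, 38.9 and 67.9 under anti-CTLA4. The young anti-CTLA4 range contained all aged anti-CTLA4 libraries but the highest, and 7 of 8 aged anti-CTLA4 libraries lay above the young median. Adar lay at 26.9, 69.7 and 85.8 CPM in young isotype tumours, at 59.98, 78.8 and 102 under anti-PD-L1 and at 40.7, 73.5 and 91.3 under anti-CTLA4. In aged tumours it lay at 26.7, 43 and 59.4 CPM under isotype, 38.5, 58.2 and 84.8 under anti-PD-L1 and 49, 54.2 and 80.3 under anti-CTLA4. Adar, which edits adenosine in RNA, gave -0.21 ± 0.18 (SE, adjusted p = 0.386). Without the highest library for Eif2ak2, aged anti-CTLA4 replicate 8, its change was 0.34 (adjusted p = 0.175), with the length trend as a covariate 0.18 (adjusted p = 0.339) and, without the 4 libraries of TMM factor under 0.8, a value of 0.39 (adjusted p = 0.0709).

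Of the ADP-ribosylation group, Parp9, Parp14 and their partner Dtx3l, none passed, with log2 fold changes of -0.09, -0.42 and -0.23. All 3 had an unadjusted p above 0.05 by edgeR, and DESeq2 called 0. With the length trend as a covariate, described below, Parp14 and Dtx3l fell. Among 10 other effectors 4 fell, led by Bst2 at -1.07 ± 0.26 (SE, adjusted p = 0.00186). Bst2 lay at 226, 235 and 505 CPM in young isotype tumours, at 148, 268 and 357 under anti-PD-L1 and at 183, 368 and 615 under anti-CTLA4. Aged tumours showed levels of 144, 188 and 441 CPM under isotype, 76.2, 172 and 243 under anti-PD-L1 and 93, 201 and 327 under anti-CTLA4. 8 of 12 young anti-CTLA4 libraries lay above every aged one.

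Ifi35 lay at 61.6, 86.6 and 121 CPM in young isotype tumours, at 55.1, 76.2 and 108 under anti-PD-L1 and at 54.9, 98.4 and 139.7 under anti-CTLA4. The aged groups lay at 57.5, 62.9 and 84.2 CPM under isotype, 44.4, 59.8 and 67.9 under anti-PD-L1 and 45.8, 57.7 and 90.00 under anti-CTLA4. Ifi35, a cytosolic protein that is also released from cells, changed by -0.64 ± 0.16 (SE, adjusted p = 0.00231). Lgals3bp lay at 128, 237 and 283 CPM in young isotype tumours, at 174, 262 and 355 under anti-PD-L1 and at 186, 282 and 539 under anti-CTLA4. Levels in aged tumours were 66.1, 130.4 and 167 CPM under isotype, 114, 190.1 and 239 under anti-PD-L1 and 146, 184 and 235 under anti-CTLA4. Lgals3bp changed by -0.77 ± 0.21 (SE, adjusted p = 0.00468), and all 12 young anti-CTLA4 libraries lay above the aged median. Xaf1 lay at 33, 40.2 and 73.2 CPM in young isotype tumours, at 30.4, 43.6 and 65 under anti-PD-L1 and at 28.7, 55.3 and 83 under anti-CTLA4. With age the levels were 26.4, 30.8 and 54.3 CPM under isotype, 15.1, 30.5 and 50.5 under anti-PD-L1 and 18.4, 34.3 and 57.4 under anti-CTLA4. Xaf1, an antagonist of the apoptosis inhibitor XIAP, changed by -0.69 ± 0.22 (SE, adjusted p = 0.0164). The 6 effectors that did not pass were Ifi27l2a (-0.60), Rtp4 (-0.50), Phf11d (-0.29), Trim30a (-0.12), Ifi44 (0.04) and Samd9l (0.30).

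The count of members that fell with age under anti-CTLA4 depended on the libraries and the model. Shares of all genes passing in these other fits are not given here. Within batch 1 alone, with 7 aged and 4 young libraries, 12 fell and 1 rose with a median of -0.65, and Zbp1 gave -1.49 (adjusted p = 0.00563). Batch 3 holds 1 aged and 5 young libraries, too few to test the members within it. Their median there was -0.13, and the single aged library had a members' mean of 5.61 log2 CPM against 5.34 to 6.40 in the young ones. Without aged anti-CTLA4 replicate 1 there were 11 lower and 2 higher members, and without replicate 8 there were 15 and 0. The trend of counts with transcript length had a median of 0.11 (0.01 to 0.24) in aged and of -0.001 (-0.41 to 0.09) in young anti-CTLA4 libraries, as the slope of log2 CPM on log2 length around each gene's mean. With it as a covariate 16 fell, of which 10 were among the 17 above. The others were Adar, Ddx58, Dtx3l, Oas3, Oasl2 and Parp14. Zbp1 gave -0.92 (adjusted p = 0.00836) in that fit. The part of the length trend in the result was not tested beyond that. Without the 4 libraries of TMM factor under 0.8, 12 fell and none rose, and without a batch term 21 fell and none rose. Of the 17 passing members each kept its sign in all these fits but Mx1, which was 0.04 in batch 3. In the 14 alternatives other than batch 3 alone, 6 of the 17 passed each time (Bst2, Cmpk2, Lgals3bp, Oasl1, Rsad2 and Zbp1). The other 11 lost the call in at least 1, with Ifi35 and Usp18 passing in 13, Oas2 in 12, Xaf1 in 11, Mx1 in 10 and Eif2ak2 in 8.

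**Figure D3:**
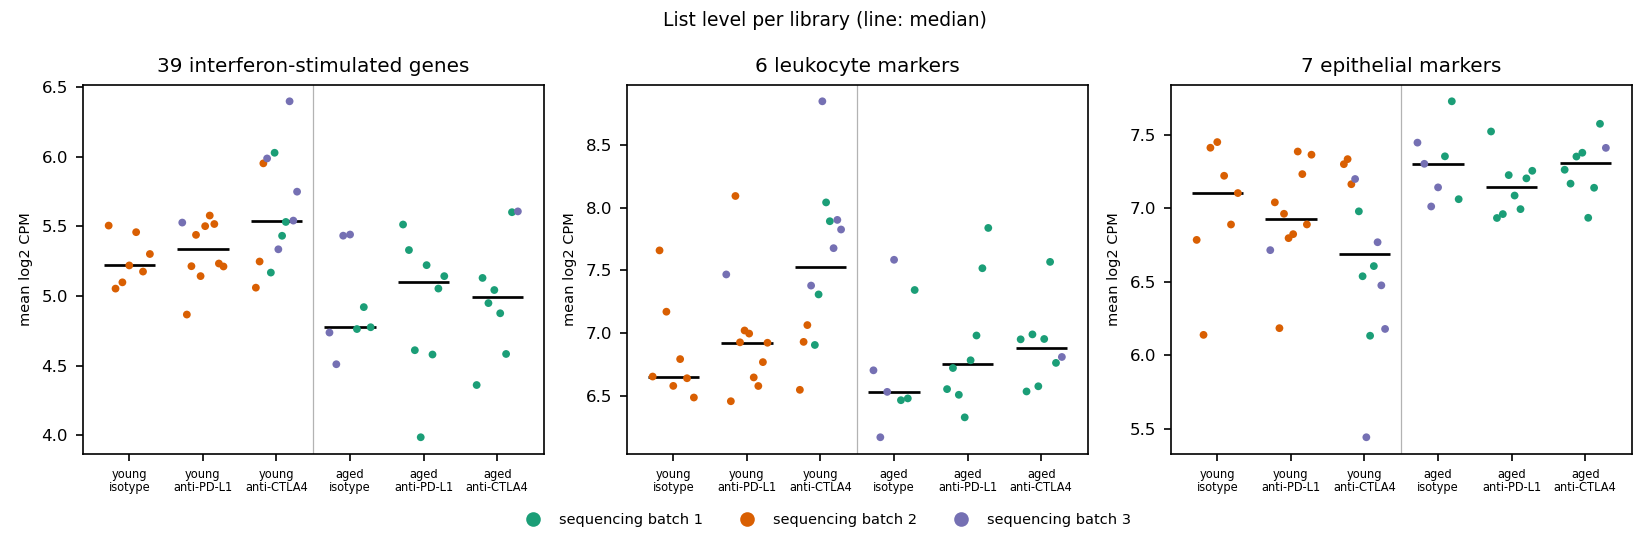
Mean log2 CPM of the 39 interferon-stimulated genes, of 6 leukocyte markers and of 7 epithelial markers in each library, by group, with batch in colour and the median as a line. The members' median is 5.54 in young and 5.00 in aged anti-CTLA4 tumours, the leukocyte median 7.53 and 6.88, and the epithelial median 6.69 and 7.31.

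Markers of several cell types moved with age under anti-CTLA4, a comparison in which 15.9% of all genes fell and 14.8% rose. The marker lists too were chosen with earlier results of these data known. Of the leukocyte markers 4 of 6 fell, with a level of 6.55 to 8.85 (mean log2 CPM, median 7.53) in young and 6.54 to 7.57 (median 6.88) in aged tumours. Neutrophil markers fell in 9 of 10 cases, from a median level of 4.52 (2.59 to 6.40) to 2.58 (0.99 to 3.32). T cell markers fell in 6 of 7 cases, from a median level of 5.06 (3.72 to 7.02) to 3.66 (2.61 to 4.65). Those of NK cells fell in 3 of 4 tested, from 2.64 (1.86 to 3.83) to 1.32 (0.54 to 2.03). Macrophage markers fell in 4 of 9 cases, from 7.64 (7.05 to 8.01) to 7.12 (6.47 to 7.49). Of 7 markers of plasmacytoid dendritic cells, which secrete type I interferon, 1 fell, and the level was 1.81 (1.20 to 4.49) in young and 1.72 (0.13 to 2.52) in aged tumours. Of 7 B cell markers none passed (0 at an unadjusted p under 0.05 by edgeR, 0 called by DESeq2), and their level spread from -0.66 to 7.50 (median 1.01) in young and from -0.52 to 5.38 (median 2.83) in aged tumours. Epithelial markers rose in 4 of 7 cases, from 6.69 (5.44 to 7.33) to 7.31 (6.94 to 7.57), so this list was expressed in each of these libraries. The list does not tell carcinoma cells from other epithelium. Of 6 fibroblast markers 1 rose, and of 4 endothelial markers none passed (0 at an unadjusted p under 0.05 by edgeR, 0 called by DESeq2). In bulk tumours, fewer cells of a type and less RNA per cell cannot be told apart, and the part of these cells in the members' decline was not tested. With the leukocyte level as a covariate 15 members fell and 1 rose, and 10 of the 17 called before were among them. With the B cell level as a covariate 17 fell and 2 rose, and all 17 were among them. Shares of all genes in these covariate fits are not given here, so their counts are not set against a background.

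Under isotype, 34 of 39 members had lower values in aged than in young tumours (56.1% of all genes did). The members' median was -0.53 (-0.09 over all genes tested). None passed, where 8.41% of all genes did. At an unadjusted p under 0.05 edgeR gave 9 members, and DESeq2 called 4 after adjustment, all lower. The smallest p belonged to Oas3 at -1.79 ± 0.61 (SE, adjusted p = 0.0567), Rsad2 at -1.77 ± 0.62 (SE, adjusted p = 0.0636) and Lgals3bp at -0.93 ± 0.33 (SE, adjusted p = 0.0644). Oas3 lay at 7.54, 11.4 and 14.6 CPM in young and at 1.78, 5.34 and 9.03 CPM in aged isotype tumours, with overlapping ranges. With the length trend as a covariate 11 members fell under isotype, and without the 4 libraries of TMM factor under 0.8, 3 of which belong to the isotype groups, 6 fell. The 8.41% belongs to edgeR's main fit after adjustment. Shares of all genes for the other counts are not given here, so those counts are not set against a background.

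Under anti-PD-L1, 31 of 39 members had lower values in aged tumours (54.7% of all genes did). The members' median was -0.33 (-0.06 over all genes tested). None passed, against 5.04% of all genes. At an unadjusted p under 0.05 there were 5 members by edgeR, and DESeq2 called none. With the length trend as a covariate 2 passed, both lower. The 5.04% belongs to edgeR's main fit after adjustment, and shares of all genes for these other counts are not given here. Zbp1 at -1.0 ± 0.41 (SE, adjusted p = 0.15), Lgals3bp at -0.77 ± 0.32 (SE, adjusted p = 0.151) and Oas2 at -1.48 ± 0.65 (SE, adjusted p = 0.177) had the smallest p. The 3 age comparisons share no library, but they share the estimated batch differences. Across them 29 members had a negative value in each and 3 a positive value in each (Eif2ak2, Ifi44 and Ifih1), and 7 were of mixed sign. The matching shares of all genes are not given here. That the change under anti-CTLA4 differs from the change under isotype was tested as a difference of effects, for which no member passed, nor did any gene of all tested (0%). In that test edgeR gave 0 members at an unadjusted p under 0.05 and DESeq2 called 0, with a members' median of -0.10.

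**Figure D4:**
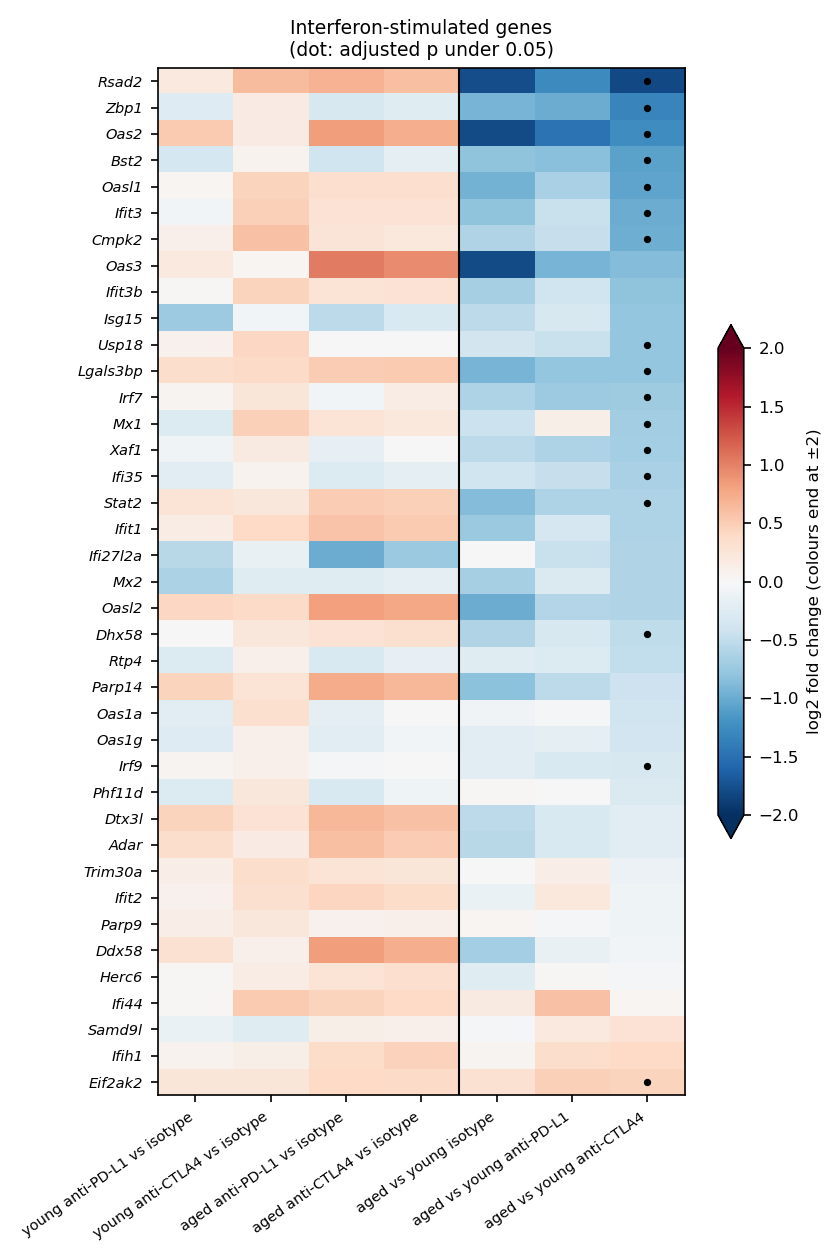
Log2 fold change of each member (rows, ordered by the last column) in the 4 comparisons of an antibody with isotype and the 3 comparisons of aged with young mice, with a dot where the adjusted p was under 0.05. Blue prevails in the 3 age columns and all 17 dots stand in the anti-CTLA4 age column; the antibody columns within an age share their isotype libraries, and the colours end at ±2.

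By edgeR neither antibody gave a passing change in any member against isotype. In young mice anti-PD-L1 left a members' median of 0.05 (0.02 over all genes tested), with 25 members higher and 14 lower. Of all genes 47.8% were lower, and edgeR passed 1.59%. The smallest p were those of Isg15 at -0.73 ± 0.33 (SE, adjusted p = 0.168), Mx2 at -0.63 ± 0.29 (SE, adjusted p = 0.169) and Dtx3l at 0.45 ± 0.21 (SE, adjusted p = 0.188). At an unadjusted p under 0.05 there were 3 members, and DESeq2 called none. Anti-CTLA4 in young mice gave a median of 0.23 (-0.04 over all genes tested), with 35 members higher and 4 lower. Of all genes 55.4% were lower, and edgeR passed 0.0726%. No member reached an unadjusted p under 0.05 and DESeq2 called none. Cmpk2 at 0.58 ± 0.33 (SE, adjusted p = 0.792), Trim30a at 0.36 ± 0.21 (SE, adjusted p = 0.798) and Ifi44 at 0.53 ± 0.32 (SE, adjusted p = 0.804) came first. The highest libraries of Rsad2, Ifit3 and Oasl1 in the whole series were young anti-CTLA4 tumours, at 83, 119 and 54.2 CPM. Both comparisons use the same 7 isotype libraries.

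In aged mice the members' medians were 0.28 under anti-PD-L1 and 0.29 under anti-CTLA4 (0.05 and 0.02 over all genes tested). Both comparisons again used the same isotype libraries, and edgeR passed no gene at all in either (0%). Unadjusted p under 0.05 were found for 11 and 10 members. DESeq2 called 3 members under anti-PD-L1 and 1 under anti-CTLA4, all higher. The 0% is edgeR's share at the adjusted threshold, and shares of all genes for these other counts are not given here. Ddx58 lay at 17, 25 and 37.8 CPM under isotype, at 23.2, 35.5 and 56.6 under anti-PD-L1 and at 22.5, 33.5 and 63.4 under anti-CTLA4, with overlap throughout. It had the smallest p in both, at 0.84 ± 0.25 (SE, adjusted p = 0.0878) and 0.73 ± 0.24 (SE, adjusted p = 0.0956). Adar followed at 0.59 ± 0.20 (SE, adjusted p = 0.0878) under anti-PD-L1 and 0.50 ± 0.19 (SE, adjusted p = 0.0975) under anti-CTLA4. The third were Dtx3l at 0.67 ± 0.24 (SE, adjusted p = 0.0878) under anti-PD-L1 and Ifih1 at 0.45 ± 0.18 (SE, adjusted p = 0.1) under anti-CTLA4.

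The remaining comparisons gave no passing member either. Anti-CTLA4 against anti-PD-L1 in young mice had a members' median of 0.24, with Mx1 at 0.76 ± 0.28 (SE, adjusted p = 0.657), Oas1a at 0.54 ± 0.26 (SE, adjusted p = 0.657) and Isg15 at 0.68 ± 0.36 (SE, adjusted p = 0.657) first. In aged mice the median was 0.0008, with Phf11d at 0.21 ± 0.24 (SE, adjusted p = 1), Xaf1 at 0.18 ± 0.22 (SE, adjusted p = 1) and Bst2 at 0.20 ± 0.25 (SE, adjusted p = 1). The age difference of the anti-PD-L1 effect had a median of 0.24, led by Ddx58 at 0.54 ± 0.33 (SE, adjusted p = 1), Oas3 at 0.86 ± 0.54 (SE, adjusted p = 1) and Mx1 at 0.55 ± 0.39 (SE, adjusted p = 1). For anti-CTLA4 the leading members of the age difference were Ddx58 at 0.62 ± 0.38 (SE, adjusted p = 0.634), Oas3 at 0.92 ± 0.63 (SE, adjusted p = 0.644) and Ifih1 at 0.34 ± 0.27 (SE, adjusted p = 0.665). In all 4, edgeR passed 0% of genes, DESeq2 called 0 members, and members at an unadjusted p under 0.05 numbered 2 for anti-CTLA4 against anti-PD-L1 in young mice and 0 in the other 3.

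Counts of the interferons themselves were near 0. None of 17 type I interferon genes passed the filter, 5 had no count in any library, and their summed count ran from 0 to 38 per library with a median of 4. Ifnb1 had 207 counts in all, over 41 of 52 libraries, and its highest library, with 38, was a young anti-CTLA4 tumour. By group the summed counts had medians of 5, 1.5 and 7 in young isotype, anti-PD-L1 and anti-CTLA4 tumours and of 3, 3.5 and 4.5 in aged ones. The single interferon genes were not tested between groups. Ifng, the type II interferon, was measurable. Ifng lay at 2.56, 3.54 and 4.81 CPM in young isotype tumours, at 0.714, 3.16 and 5.43 under anti-PD-L1 and at 1.43, 7.85 and 19.5 under anti-CTLA4. Tumours of aged mice had 0.377, 1.28 and 4.37 CPM under isotype, 0.109, 0.993 and 2.24 under anti-PD-L1 and 0.429, 1.5 and 2.02 under anti-CTLA4. It fell with age under anti-CTLA4, at -2.63 ± 0.44 (SE, adjusted p = 2.46e-05), and gave -2.04 ± 0.65 (SE, adjusted p = 0.0537) under anti-PD-L1 and -1.72 ± 0.66 (SE, adjusted p = 0.0931) under isotype.

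Other genes of the pathway were compared between aged and young anti-CTLA4 tumours as well. Their lists were chosen by role, with earlier results of these data known, so their counts are descriptive. In that comparison 15.9% of all genes fell and 14.8% rose. Of 9 receptor and JAK-STAT genes 3 fell, the receptor chain Ifnar2 at -0.64 ± 0.11 (SE, adjusted p = 4.66e-05), Il10rb at -0.52 ± 0.11 (SE, adjusted p = 0.000397) and Ifngr2 at -0.36 ± 0.14 (SE, adjusted p = 0.0396). Ifnar1, the other receptor chain, gave -0.00 ± 0.08 (SE, adjusted p = 0.993). Of 6 negative regulators 3 fell, with Socs1, an inhibitor of JAK kinases, at -2.0 ± 0.25 (SE, adjusted p = 4.26e-07), Socs3 at -0.55 ± 0.13 (SE, adjusted p = 0.000999) and the phosphatase Ptpn6 at -0.78 ± 0.24 (SE, adjusted p = 0.0106).

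Of 14 inducers of interferon 7 fell and 2 rose, where 15.9% of all genes fell and 14.8% rose. The DNA sensor cGAS (Mb21d1) was among those that rose, at 0.53 ± 0.12 (SE, adjusted p = 0.000886), and the transcription factors Irf5 at -0.73 ± 0.14 (SE, adjusted p = 9.38e-05), Irf3 at -0.73 ± 0.14 (SE, adjusted p = 0.000111) and Irf1 at -0.79 ± 0.16 (SE, adjusted p = 0.000223) fell. Irf3 lay at 43.2, 52.3 and 74 CPM in young isotype tumours, at 32.2, 44.4 and 67.2 under anti-PD-L1 and at 40.8, 50.5 and 80.2 under anti-CTLA4. In aged tumours it lay at 28.6, 35.9 and 40.6 CPM under isotype, 28.7, 36.8 and 47.5 under anti-PD-L1 and 30.6, 35.1 and 37.4 under anti-CTLA4. All aged groups of Irf3 had medians below those of all young groups. Of 10 interferon gamma targets 8 fell, led by Nos2 at -3.53 ± 0.60 (SE, adjusted p = 2.88e-05), the adhesion molecule Icam1 at -1.06 ± 0.21 (SE, adjusted p = 0.000146) and the class II genes H2-Ab1 at -1.39 ± 0.30 (SE, adjusted p = 0.000561) and H2-Eb1 at -1.41 ± 0.33 (SE, adjusted p = 0.00123). Of 32 further interferon-stimulated genes 8 fell and 2 rose, the smallest p being those of Parp10 at -0.89 ± 0.17 (SE, adjusted p = 0.000102), Ube2l6 at -0.99 ± 0.20 (SE, adjusted p = 0.000264), Uba7 at -1.27 ± 0.28 (SE, adjusted p = 0.000646) and Ifitm1 at -1.47 ± 0.33 (SE, adjusted p = 0.000784). Ube2l6 and Uba7 are the conjugating and activating enzymes for Isg15. In either direction, the 32 further genes passed at about the rate of all genes, 30.6%.

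In the age comparison under isotype, Irf3 fell at -0.88 ± 0.20 (SE, adjusted p = 0.00577), Socs1 at -1.56 ± 0.38 (SE, adjusted p = 0.00794), and Mb21d1 rose at 0.70 ± 0.18 (SE, adjusted p = 0.0105). Under isotype 8.41% of all genes passed, in either direction. Of the 32 further interferon-stimulated genes 4 fell there, Rnf213 at -1.26 ± 0.34 (SE, adjusted p = 0.0165), Parp10 at -0.86 ± 0.25 (SE, adjusted p = 0.0281), Nlrc5 at -1.57 ± 0.50 (SE, adjusted p = 0.0402) and Uba7 at -1.33 ± 0.43 (SE, adjusted p = 0.044). Under anti-PD-L1 Socs1 fell at -1.76 ± 0.37 (SE, adjusted p = 0.0062), Socs3 at -0.68 ± 0.19 (SE, adjusted p = 0.0323), Nos2 at -3.55 ± 0.99 (SE, adjusted p = 0.0274) and Ifnar2 at -0.58 ± 0.17 (SE, adjusted p = 0.0318), and Mb21d1 rose at 0.67 ± 0.17 (SE, adjusted p = 0.0191). Irf3 gave -0.61 ± 0.20 (SE, adjusted p = 0.0568) under anti-PD-L1.

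Across the 52 libraries most members varied together with Irf7. Irf7 was not related to all genes tested, so the counts of passing relations here and within batches are not set against a background. Pearson's r with Irf7 in log2 CPM had a median of 0.66 over the other 38 members, and 36 of the 38 relations passed a permutation test (100000 resamples, two-sided, Benjamini-Hochberg adjusted over the 38). The highest were Usp18 (r = 0.906, rho = 0.893), Cmpk2 (r = 0.850, rho = 0.831) and Irf9 (r = 0.841, rho = 0.796), each with an adjusted permutation p of 1.36e-05 that rests on the smallest p the resamples can give. The lowest were Samd9l (r = 0.075, rho = 0.042, adjusted permutation p = 0.601), Eif2ak2 (r = 0.107, rho = 0.157, adjusted permutation p = 0.463) and Ifih1 (r = 0.342, rho = 0.326, adjusted permutation p = 0.0136). Without the 2 libraries farthest from the median of Irf7, aged anti-CTLA4 replicate 1 and aged anti-PD-L1 replicate 4, the median r was 0.60 and 35 relations passed. Usp18, Cmpk2 and Irf9 then had r of 0.873, 0.812 and 0.774, and Samd9l, Eif2ak2 and Ifih1 had 0.028, 0.041 and 0.234, so that the relation of Ifih1 was weaker without those libraries. With group and batch means removed from the levels, Samd9l had r = 0.362 (adjusted permutation p = 0.0093), Eif2ak2 r = 0.293 (adjusted permutation p = 0.0349) and Ifih1 r = 0.539, and Ddx58 was then lowest (r = 0.273, adjusted permutation p = 0.0509).

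The relations did not hold within every batch. In batch 1 (22 libraries) the median r was 0.74 and 33 relations passed, and in batch 3 (11 libraries) it was 0.83 and 29 passed. In batch 2, which holds 19 young libraries and no aged one, the median r was 0.28 and none passed. Irf7 itself varied less there, with an SD of 0.41 in log2 CPM against 0.76 in batch 1 and 0.66 in batch 3. Usp18 had r = 0.603 in batch 2, 0.958 in batch 1 and 0.925 in batch 3, and Eif2ak2 had -0.271, 0.080 and 0.510 in the same order. With group and batch means removed the median r was 0.60 and 37 relations passed. Counts of all members share library depth and scaling.

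**Figure D5:**
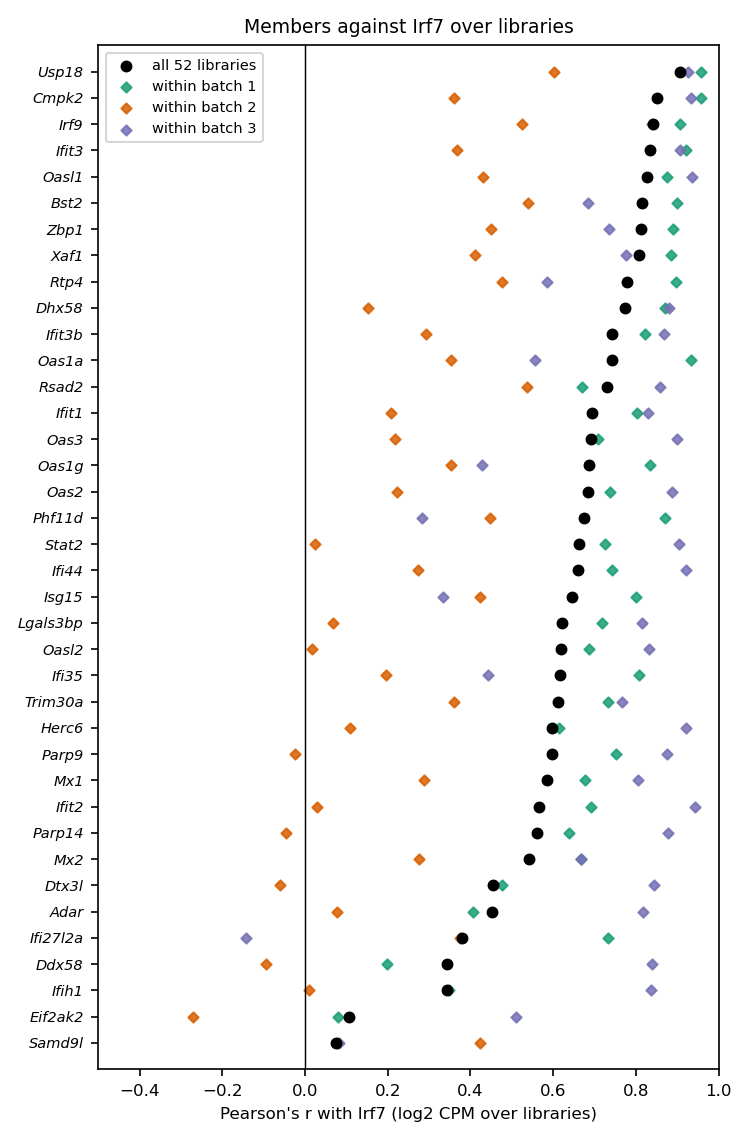
Pearson's r of each of the other 38 members with Irf7 in log2 CPM over all 52 libraries (black) and within each sequencing batch (coloured). Usp18 stands highest at 0.906 and Samd9l lowest at 0.075, and the batch 2 points run from -0.271 to 0.603.

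Irf7 was also set beside 15 values outside the module. It moved with the interferon gamma target level (r = 0.760, rho = 0.667), Irf1 (r = 0.714, rho = 0.619) and Ifng (r = 0.704, rho = 0.624), each with an adjusted permutation p of 3.75e-05 for r. Without the 2 libraries named above these r were 0.671, 0.625 and 0.600. In batch 2 they were 0.202, 0.053 and 0.112, none of which passed, and in batch 1 they were 0.823, 0.798 and 0.786. In batch 3 they were 0.794, 0.786 and 0.710, the last with an adjusted permutation p of 0.0586. Of the marker levels, NK cells had r = 0.631 (rho = 0.626), macrophages r = 0.578 (rho = 0.574), neutrophils r = 0.520 (rho = 0.583) and T cells r = 0.519 (rho = 0.473). With group and batch means removed these r were 0.496, 0.335, 0.327 and 0.370. B cells were at r = 0.080 (rho = 0.112, adjusted permutation p = 0.618). The epithelial level had r = -0.331 (rho = -0.296, adjusted permutation p = 0.0241), and in none of the batches did that relation pass. With group and batch means removed its r was -0.034 (adjusted permutation p = 0.934). Irf3 had r = 0.376 (rho = 0.371, adjusted permutation p = 0.00915), which passed within no batch and was 0.022 once group and batch means were removed.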

How the data were processed

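Members are the 39 named symbols, matched to Ensembl identifiers through GENCODE vM21 (GRCm38). They and the other lists were chosen with earlier results of these data known. Some items of the lists are not reported here. Salmon (version not given in the sources used here), DESeq2 1.16.1 and mm10 are named in the submitters' processing notes. The authors deposited estimated counts per gene, all whole numbers, and TPM values of the same 52 libraries. Per the labels' protocols, a stranded mRNA kit was used and reads were pairs of 75 bases. Strand handling in counting was not given in the sources used here. Paralogs and overlapping genes are therefore uncertain.

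From the deposited counts, edgeR 4.0.16 (R 4.3.3) kept 17899 genes by filterByExpr, scaled by TMM and fitted 1 quasi-likelihood model to the 52 libraries, with group and batch as terms (44 residual degrees of freedom). The 11 comparisons were adjusted by Benjamini-Hochberg over all genes tested. Shares of all genes passing are given for this fit after adjustment, not for unadjusted p, DESeq2 or the other alternatives. Log2 CPM used a prior count of 2, and a list's level is its mean log2 CPM in a library. Deposited TPM served for levels between genes and for effective lengths, from which each library's length trend was taken. Total counts of 9549847 to 53778370 gave each member at least 36 counts in each library. Correlations used permutation tests with scipy 1.17.1. Among 209 pairs of libraries within a group, chi-square per degree of freedom was at least 16.9, above sampling noise. This cannot show that the libraries came from different animals. Each library was counted as 1 replicate, following the labels. The fit was tested on simulated data.

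The rule for named genes took 16 members fixed by role, each member that passed in any comparison, the 3 members of smallest p per comparison, up to 4 passing genes per pathway list, and the 3 highest and 3 lowest relations with Irf7. Alternatives were relative log expression size factors, DESeq2 1.42.0, no batch term, no filter, only the groups compared, single batches, the replicate number as a block, the length trend as a covariate, and leaving out aged isotype replicate 7 or the 4 libraries of TMM factor under 0.8. The leukocyte and B cell levels as covariates, and leaving out aged anti-CTLA4 replicates 1 and 8, were chosen after seeing the data.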

Additional observations from a re-analysis of the deposited data

Results flagged for a closer look

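Values far from the rest of their group were looked for in 23 members, over 115 combinations of member and group. Young anti-CTLA4, with 12 libraries, was not examined, since groups of more than 10 were left out. In 7 the highest or lowest library stood apart by Dixon's 95% critical value, where chance gives about 1 in 20 groups. In aged isotype replicate 3, a library of low TMM factor, Isg15 was at 191 CPM (next library 96.8) and Oas1a at 111 CPM (next 75.1). In aged isotype replicate 2 Lgals3bp was lowest, at 66.1 CPM (next 125). Zbp1 was lowest in aged anti-PD-L1 replicate 4, at 18.3 CPM (next 48.6). Eif2ak2 was lowest in young anti-PD-L1 replicate 3, at 20.5 CPM (next 32.7), and highest in aged anti-CTLA4 replicate 8, at 67.9 CPM (next 42.2). Dhx58 was lowest in young anti-PD-L1 replicate 2, at 16.01 CPM (next 23.6).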

How the results depend on the processing

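Of 153 counts of passing members under an alternative, 136 stayed within 1.5 times the reported count. Most of these were counts of 0 that stayed at 0. The reported count was 0 in every comparison but aged against young mice under anti-CTLA4, so the total says little about that comparison. The matching shares of all genes under an alternative are not given here. For aged against young mice under anti-CTLA4, where 17 passed, the count was 11 with no filter, 0 in batch 3 alone, where 1 aged library makes the test uninformative, and 11 with the replicate block. For the same comparison under isotype, where none passed, it was 4 with DESeq2, 5 with no batch term, 4 with only the groups compared, 6 without libraries of TMM factor under 0.8, 11 with the length trend and 1 with the B cell level as a covariate. Without aged anti-CTLA4 replicate 8 it was 1. Under anti-PD-L1 it was 4 with no batch term, 7 with only the groups compared and 2 with the length trend. For isotype and anti-PD-L1 the fit of only the groups compared had no batch term either, since those groups share no batch. Of the antibody comparisons, aged anti-PD-L1 gave 3 and aged anti-CTLA4 gave 1 with DESeq2, and no batch term gave 1 each for young anti-CTLA4 against isotype and against anti-PD-L1. The cause was not tested. The labels do not say that replicate numbers pair the libraries. Between ages, pairs of like number with a correlation above 0.1 numbered 0 of 7 under isotype, 2 of 8 under anti-PD-L1 and 1 of 8 under anti-CTLA4. In the antibody comparisons they numbered 2 to 4 of 7 to 10. Pairs of unlike number were not compared with them, so pairing was not excluded.

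Of 669 log2 fold changes of named members under an alternative, 572 kept direction and side of the threshold and 2 reversed: Mx1 with age under anti-CTLA4 was 0.0386 in batch 3 alone, and the age difference of the anti-CTLA4 effect on Ifih1 was -0.0928 with no batch term. Relations with Irf7 that reversed were Eif2ak2 in batch 2 (-0.271), the length trend in batch 3 (0.516), the macrophage level in batch 2 (-0.064), the endothelial level in batches 1 and 2 (-0.048 and -0.069), and the fibroblast level in batch 3 (0.548) and without the 2 farthest libraries (0.002). Depth limits the interferon genes, with a median of 4 summed counts per library.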
